A study of Caenorhabditis elegans with 11 samples.

Results

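Peptide signalling genes of Caenorhabditis elegans were followed through exposure to high oxygen and RNA interference (RNAi) against skn-1. The genes were the FMRFamide-like peptide genes (flp), the other neuropeptide-like protein genes (nlp) and the insulin-like peptide genes (ins, with daf-28), taken by their symbols. The genes nlp-24 to nlp-34, which encode antimicrobial peptides of the epidermis, were left out. This gave 97 genes on 109 probe sets, of 17118 genes on 20766 probe sets that name a single gene. The flp family had 25 genes, the nlp family 48 and the ins family 24.

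Neuropeptides are made as precursors, cut by the proprotein convertase EGL-3 and trimmed by the carboxypeptidase EGL-21, and released from dense core vesicles with the help of UNC-31. Most act on G protein-coupled receptors, while the insulin-like peptides bind the receptor DAF-2, where some are agonists and others antagonists. SKN-1 is an Nrf-type transcription factor that drives detoxification genes, and in worms FLP-1 from the AIY interneurons is known to regulate it in the intestine.

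RNA of whole hermaphrodites was measured on 11 Affymetrix arrays, with 3 samples of skn-1 RNAi with oxygen, 4 of oxygen and 4 of control. Both oxygen groups spent 6 hours at 20°C under 99% oxygen and 40 PSI, and the control worms were untreated. All had been moved as young larvae to 25°C, at which they were sterile, and were 3 days old. The sample labels name the strain TJ1090 and the design text TJ1060. The labels do not give the region of skn-1 targeted or the food of the other groups, and skn-1 RNAi without oxygen is not analysed here. Oxygen cannot be told apart from pressure, temperature or handling in the chamber. In whole-worm RNA, fewer cells of a type and less RNA per cell cannot be told apart either.

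The values are MAS5 signals, and 2 sets of arrays differed in their scaling. Controls 1 and 2 and oxygen 1 and 2 formed set 1, and the other 7 arrays, with all 3 skn-1 RNAi samples, formed set 2. The array medians were 58.7 to 63.7 with skn-1 RNAi and oxygen, 35 to 79.1 with oxygen and 27.4 to 67.5 in controls. Comparisons with the skn-1 RNAi group are therefore partly comparisons between sets, so values from a set-blocked fit, with the set as a term in the model, or from set 2 alone stand beside those that turn on it. The 3 probe sets of skn-1 were not called against oxygen alone, with log2 changes with RNAi of -0.58, -0.35 and 0.65 and limma adjusted p of 0.547 to 0.769. All 3 were lower with the sets accounted for, by log2 changes of -0.76, -0.92 and -0.48 in the set-blocked fit (adjusted p of 0.11 to 0.463) and -0.73, -0.82 and -0.41 within set 2. Against control, 1 of them was called lower in the set-blocked fit, with a log2 change of -1.01 and an adjusted p of 0.0341, and not within set 2 (adjusted p = 0.11). The signal of gst-4, a detoxification gene known as a SKN-1 target, was 844 to 1823 with skn-1 RNAi and oxygen, 3978 to 5171 with oxygen and 146 to 774 in controls. With skn-1 RNAi its log2 change against oxygen alone was -1.94, not called (limma adjusted p = 0.258). The adjusted p was 0.163 in the set-blocked fit and 0.366 within set 2. Against control it was not called with skn-1 RNAi and oxygen either (adjusted p = 0.0627).

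The flp family was the best detected. The signals of 22 of its 32 probe sets lay above the 40th percentile of the array on all 11 arrays, against 23 of 52 for nlp and 2 of 25 for ins. A group is called dim here where all its arrays lay below that percentile. Testing needed 3 or more arrays at or above it, which kept 91 probe sets of 81 genes (30 flp, 42 nlp, 19 ins). The 18 left untested included flp-23, flp-27, ins-3, ins-11, ins-21, ins-32 and ins-37, and the 10 probe sets dim on every array were among them. Per array, 79 to 84 of the 109 probe sets passed the percentile with skn-1 RNAi and oxygen, 66 to 84 with oxygen and 65 to 77 in controls.

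Among the brightest members, nlp-40, nlp-36 and flp-22 had overlapping groups. For nlp-40, whose peptide is released by the intestine in the defecation cycle, the signal averaged 870 ± 88.9 with skn-1 RNAi and oxygen (SD, n = 3), 941 ± 231 with oxygen (SD, n = 4) and 1082 ± 251 in controls (SD, n = 4). That of nlp-36 averaged 705 ± 135 with skn-1 RNAi and oxygen, 857 ± 73.2 with oxygen and 975 ± 348 in controls. None of the 3 comparisons passed for either gene, with adjusted p of 0.401 to 0.936. For flp-22 the mean was 202 ± 19.4 with skn-1 RNAi and oxygen, 220 ± 31.1 with oxygen and 180 ± 17.5 in controls. Signals of flp-6 spread far more, with 221, 246 and 178 with skn-1 RNAi and oxygen, 393, 508, 250 and 84.7 with oxygen, and 315, 301, 169 and 16.9 in controls. Its lowest oxygen and control signals both came from replicate 4. Signals of nlp-11 averaged 171 ± 48 with skn-1 RNAi and oxygen, 181 ± 35.7 with oxygen and 135 ± 36.5 in controls. Those of ins-34 ran from 97.8 to 203 with skn-1 RNAi and oxygen, 94.9 to 188 with oxygen and 138 to 251 in controls. All 3 groups overlapped for both genes.

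Under oxygen alone, 3 probe sets of these families rose and 0 fell against control (limma, adjusted p under 0.05 over the 15389 probe sets tested). They were those of nlp-81, ins-4 and 1 of the probe sets of nlp-16. That is 3.30% of the 91. Of all probe sets 3.83% were called, 3.29% higher and 0.539% lower, so the share lay near the background. At an unadjusted p under 0.05 there were 13, all higher, or 14.3% against 14.5%. The set-blocked fit called 8, against 9.26% of all probe sets, adding flp-9, flp-18, ins-7, nlp-39 and nlp-52, and set 2 alone called nlp-81 and ins-7, against 2.74%.

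The nlp-81 probe set had 41.2, 52.6, 73.3 and 41.3 under oxygen and 11.3, 14, 5.6 and 3.5 in controls. Every oxygen sample lay above every control sample, and all 4 controls were dim. The log2 change was 2.76 ± 0.42 (SE), with a limma adjusted p of 0.00529. Because the controls were dim, the fold is given as a bound against the percentile: at least 2.0-fold higher. The call was kept in all 11 fits that left out 1 array, with adjusted p of 0.00498 to 0.0215.

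The ins-4 probe set, of a DAF-2 agonist, had 62.1, 35.3, 42.1 and 50.7 under oxygen and 4.0, 14.4, 12.7 and 10.5 in controls. The groups did not overlap and the controls were again dim. The log2 change was 2.31 ± 0.42 (SE), at least 1.84-fold, with a limma adjusted p of 0.0134, and it held in all 11 fits that left out 1 array. The call ended within either set alone (adjusted p = 0.0591 in set 2 and 0.262 in set 1), after quantile normalization (adjusted p = 0.0762) and after median centring (adjusted p = 0.0722). With the replicate number as a block it held in the fit of all arrays (adjusted p = 0.0261) and ended in a fit of control and oxygen arrays only (adjusted p = 0.0703, against 0.0354 without the block).

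For nlp-16, the called probe set had 47.2, 44.5, 53.6 and 71.5 under oxygen and 13.5, 24.2, 21.8 and 19.1 in controls, without overlap. It was 2.77-fold higher, with a log2 change of 1.47 ± 0.31 (SE) and a limma adjusted p of 0.0243. That call ended with the replicate number as a block (limma adjusted p = 0.0544). It also ended without control 1 or without oxygen 1, 3 or 4, with limma adjusted p of 0.0502 to 0.0758. The gene's other probe set had 20.6, 35, 7.5 and 39 under oxygen and 9.1, 16.2, 19.7 and 9.3 in controls. These values overlapped, with a log2 change of 0.74 and a limma adjusted p of 0.618.

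**Figure D1:**
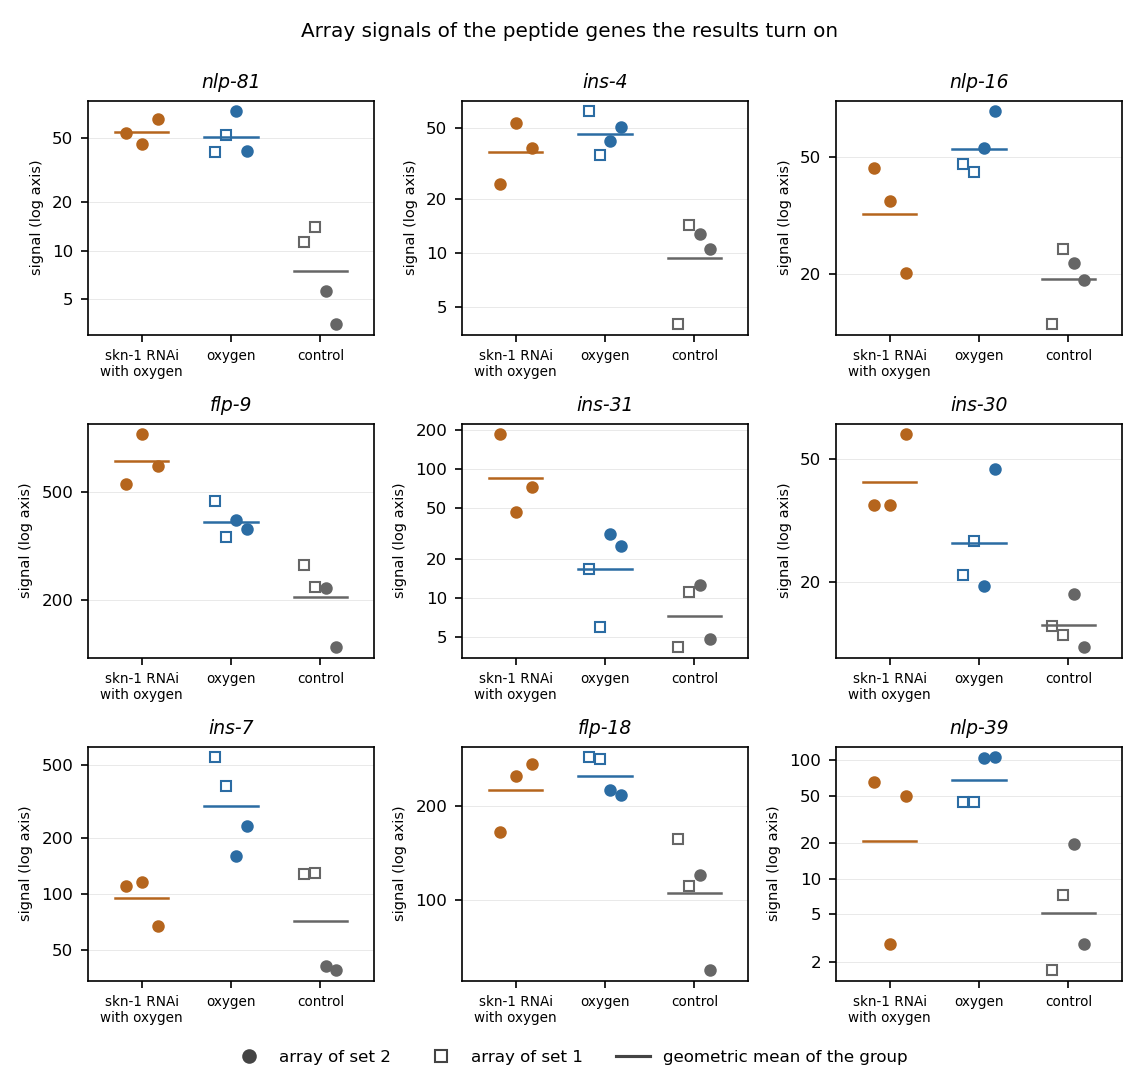
Signal per array, on log axes, for the 9 peptide genes the results turn on, with skn-1 RNAi with oxygen on the left, oxygen in the middle and control on the right. Squares are arrays of set 1, circles arrays of set 2 and lines the geometric means. All oxygen signals lie above all control signals of the same gene in every panel but that of ins-31.

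The ins-7 probe set showed a large difference that just missed the threshold. INS-7 is a DAF-2 agonist whose gene is repressed by DAF-16, the transcription factor that insulin signalling restrains. It had 548, 386, 161 and 234 under oxygen and 128, 130, 40.9 and 39 in controls. No oxygen sample fell within the control range, and in both groups set 1 was the higher. The log2 change was 2.05 ± 0.52 (SE), 4.15-fold, with a limma adjusted p of 0.0618. In the set-blocked fit it was called (adjusted p = 0.000929), as it was with the replicate number as a block (adjusted p = 0.00784) and within set 2 (adjusted p = 0.0302).

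Further probe sets lay near the threshold under oxygen. For flp-18, whose peptides act on the receptors NPR-1 and NPR-5, the signals were 286, 282, 225 and 216 under oxygen and 157, 111, 120 and 59.9 in controls. The oxygen signals all lay above the controls. The log2 change was 1.24 ± 0.31 (SE), with a limma adjusted p of 0.0562, and 0.0167 in the set-blocked fit.

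The flp-9 probe set had 461, 342, 394 and 365 under oxygen and 269, 223, 222 and 135 in controls. The groups were apart, with a log2 change of 0.91 ± 0.25 (SE) and a limma adjusted p of 0.0869, or 0.0346 in the set-blocked fit. The nlp-39 probe set had 44.5, 44.1, 105 and 106 under oxygen and 1.7, 7.3, 19.5 and 2.8 in controls, all dim. This was at least 2.70-fold, with a log2 change of 3.74 ± 1.04 (SE) and a limma adjusted p of 0.0862 (0.0496 in the set-blocked fit). For 1 of the 3 probe sets of flp-15, the signals were 44.2, 61.6, 40.6 and 50.1 under oxygen and 22.6, 29.4, 31.8 and 10.2 in controls, apart, with a limma adjusted p of 0.118.

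Counted without a model, 10 probe sets had every oxygen signal above every control signal, and 0 had the reverse. The first is 11% of the 91, against 6.60% of all probe sets, and for the reverse the background was 3.76%. The 10 were those of flp-9, flp-15, flp-18, ins-4, ins-7, ins-30, nlp-14, nlp-16, nlp-39 and nlp-81.

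Over the families as a whole, the median log2 change of the 91 probe sets under oxygen was 0.39, against 0.06 over all probe sets, and 71 of the 91 lay above 0 (78%, against 54.6%). Leaving out 1 array moved the median of the 91 to between 0.20 and 0.48, with the lowest value without control 2 and 0.26 without oxygen 3. The median was 0.42 for flp, 0.32 for nlp and 0.49 for ins. In both array sets taken alone, 56 of the 91 lay above 0 (61.5%, against 36.8% of all), and 9 lay below 0 (9.89%, against 30%). Scaling each array to its median moved the median of all probe sets by -0.36 on the log2 scale, to -0.31. That of the peptide genes became 0.03, and that of nlp turned to -0.04. After quantile normalization the peptide genes had a median of 0.09 and all probe sets -0.08. Limma called 0 peptide probe sets after median centring, against 1.91% of all, and 0 after quantile normalization, against 3.25%. The adjusted p of nlp-81 was then 0.105 and 0.141. Over all probe sets, 85.9% of the calls were higher as deposited, 77% after quantile normalization and 75.2% after median centring.

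**Figure D2:**
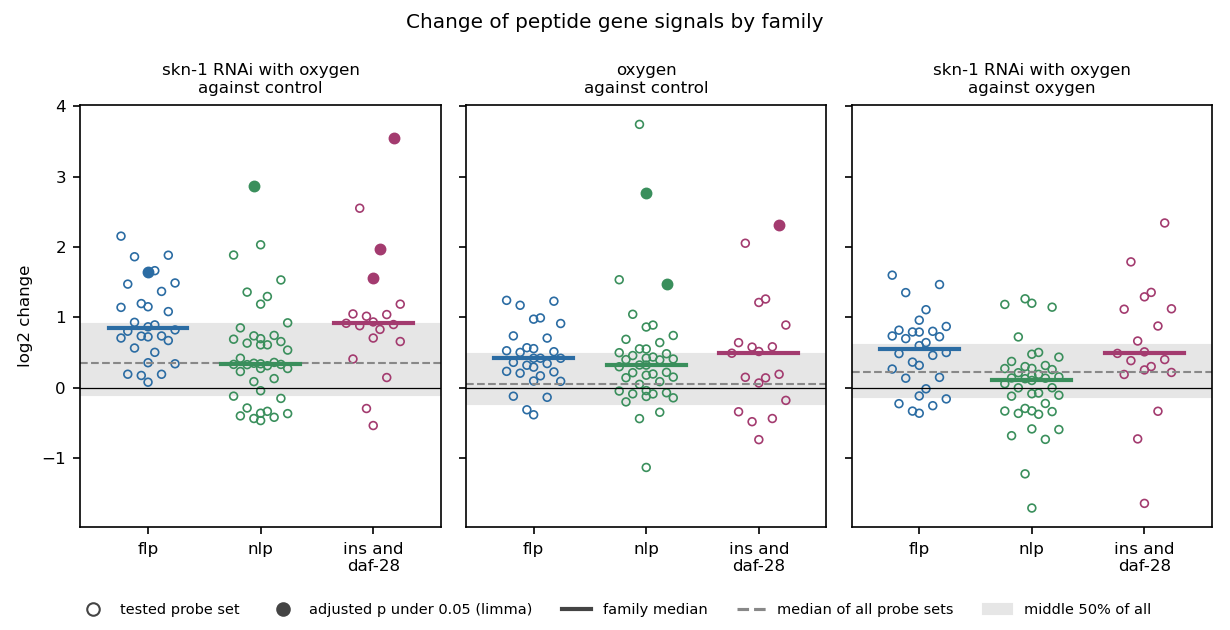
Log2 change of each tested probe set by family in the 3 comparisons. Filled points have a limma adjusted p under 0.05, thick lines are family medians, the dashed line is the median of all 15389 probe sets and the grey band their interquartile range. The flp and ins medians lie above the dashed line in all 3 panels, while that of nlp lies below it in the 2 panels with skn-1 RNAi with oxygen on top.

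**Figure D3:**
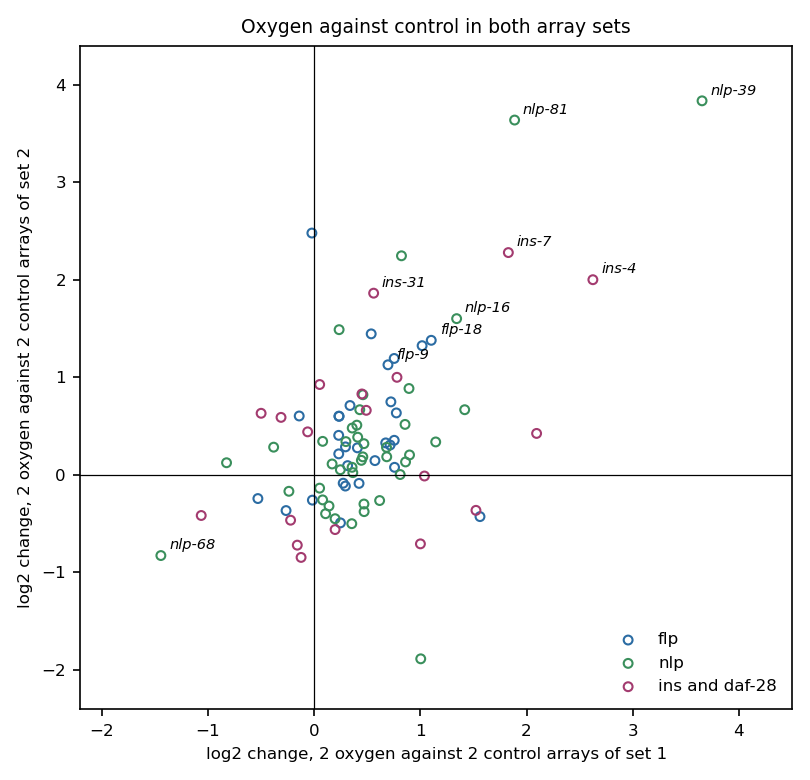
Log2 change of oxygen against control for the 91 tested probe sets, from the 4 arrays of set 1 (x axis) and the 4 oxygen and control arrays of set 2 (y axis). Of the 91, 56 lie above 0 on both axes.

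With skn-1 RNAi and oxygen, 5 probe sets rose and 0 fell against control (limma): those of nlp-81, flp-9, ins-31, ins-30 and ins-4. This is 5.49% of the 91. Of all probe sets 3.34% were called, 2.49% higher and 0.851% lower. At an unadjusted p under 0.05 there were 28, or 30.8% against 20.8%. The set-blocked fit called 7, against 4.54% of all, namely nlp-81, flp-9 and ins-31 with flp-3, flp-15, flp-18 and ins-24, and set 2 alone called nlp-81 and flp-9, against 1.86%. This comparison uses the same control arrays as the one of oxygen alone, so the shared names are not independent of each other.

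The nlp-81 probe set had 53.5, 45.6 and 65.7 with skn-1 RNAi and oxygen and 11.3, 14, 5.6 and 3.5 in controls, without overlap. It was at least 2.15-fold higher, with a log2 change of 2.86 ± 0.46 (SE) and a limma adjusted p of 0.0106. Leaving out skn-1 RNAi sample 3 ended the call (adjusted p = 0.0534). The ins-4 probe set had 24.2, 53.7 and 38.5 with skn-1 RNAi and oxygen, above the control range of 4.0 to 14.4. Its log2 change was 1.98 ± 0.46 (SE), at least 1.46-fold, with a limma adjusted p of 0.0459. It was not called in the set-blocked fit (adjusted p = 0.0714), and it kept the call in 1 of the 11 fits that left out 1 array.

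The flp-9 probe set was the bright one among the 5. It had 533, 811 and 623 with skn-1 RNAi and oxygen and 269, 223, 222 and 135 in controls, with oxygen alone between them at 461, 342, 394 and 365. Neither pair of neighbours in that order overlapped. Neither step was called in the fit by group alone. The limma adjusted p was 0.0869 from control to oxygen and 0.455 from oxygen to skn-1 RNAi with oxygen. Of all probe sets, 6.60% were higher without overlap in the first step and 12% in the second. Against control, flp-9 with skn-1 RNAi and oxygen was 3.13-fold higher, with a log2 change of 1.65 ± 0.27 (SE) and a limma adjusted p of 0.0121. The call held in the set-blocked fit (adjusted p = 0.00851), within set 2 (adjusted p = 0.0423) and after quantile normalization. It ended without skn-1 RNAi sample 2 or 3 (adjusted p = 0.0731 and 0.0535) and after median centring (adjusted p = 0.365).

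The ins-31 probe set had 185, 46.3 and 72.9 with skn-1 RNAi and oxygen, 16.9, 6.0, 31.6 and 25.3 with oxygen, and 4.2, 11.1, 12.6 and 4.8 in controls. All oxygen and control samples were dim, and skn-1 RNAi sample 1 was the highest. The probe set thus reached the 3 arrays needed for testing only through the skn-1 RNAi arrays. Its being tested was therefore not independent of the difference. Against control it was at least 3.38-fold higher, with a log2 change of 3.55 ± 0.67 (SE) and a limma adjusted p of 0.0211. The call ended without control 1 or any 1 of the skn-1 RNAi samples (adjusted p of 0.0533 to 0.0952). It also ended within set 2 (adjusted p = 0.0637), and it was kept with no signal filter (adjusted p = 0.0423).

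The ins-30 probe set had 35.5, 35.5 and 60.3 with skn-1 RNAi and oxygen and 14.4, 13.4, 18.3 and 12.3 in controls, all dim. This was at least 1.68-fold, with a log2 change of 1.55 ± 0.34 (SE) and a limma adjusted p of 0.0379. It kept the call in 4 of the 11 fits that left out 1 array, and lost it in the set-blocked fit (adjusted p = 0.0554).

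In the flp family all 30 tested probe sets had a log2 change above 0 in this comparison, with a median of 0.84 and a range of 0.08 to 2.15. Over all probe sets the median was 0.36, and 69.4% lay above 0. The median was 0.34 for nlp and 0.91 for ins. In the set-blocked fit these became 0.53 for flp, 0.21 for nlp and 0.74 for ins, against 0.09 over all. After median centring they were 0.27 for flp, -0.23 for nlp and 0.34 for ins, against -0.22. Quantile normalization gave 0.37 for flp, -0.16 for nlp and 0.35 for ins, against 0.02. So the sign of the nlp median turned with the scaling, and the flp and ins medians kept theirs. After quantile normalization flp-3 and flp-9 were called, against 2.78% of all probe sets, and after median centring 0, against 1.4%. Of all calls in this comparison, 74.5% were higher as deposited, 48.6% after quantile normalization and 51.2% after median centring.

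Among the flp members just short of the threshold, flp-3 had 170, 201 and 198 with skn-1 RNAi and oxygen and 31.7, 54.1, 74.4 and 99.7 in controls. The groups were apart, with a log2 change of 1.66 ± 0.41 (SE) and a limma adjusted p of 0.0564, or 0.0309 in the set-blocked fit and 0.0347 without control 4. The 3 probe sets of flp-15 had log2 changes of 1.49, 1.86 and 2.15, with every skn-1 RNAi signal above every control signal and adjusted p of 0.0645, 0.21 and 0.128. In the set-blocked fit these were 1.67, 0.81 and 1.27, and the first was called (adjusted p = 0.0475). For flp-18 the signals were 165, 250 and 273 with skn-1 RNAi and oxygen, all above the control range of 59.9 to 157, with a limma adjusted p of 0.114 (0.0437 in the set-blocked fit). Among the other families, nlp-15 had a log2 change of 1.19 ± 0.39 (SE, adjusted p = 0.135) and ins-17 one of 1.04 ± 0.28 (SE, adjusted p = 0.08), both with the groups apart. In the set-blocked fit they were 0.71 (adjusted p = 0.115) and 0.85 (adjusted p = 0.103).

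Counted without a model, 24 probe sets of 21 genes had every skn-1 RNAi signal above every control signal, and 0 had the reverse. This is 26.4% of the 91, against 16.9% of all probe sets, and for the reverse the background was 6.69%. By family, 11 were flp, 7 nlp and 6 ins. The controls include 2 arrays of set 1 and the skn-1 RNAi group none.

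**Figure D4:**
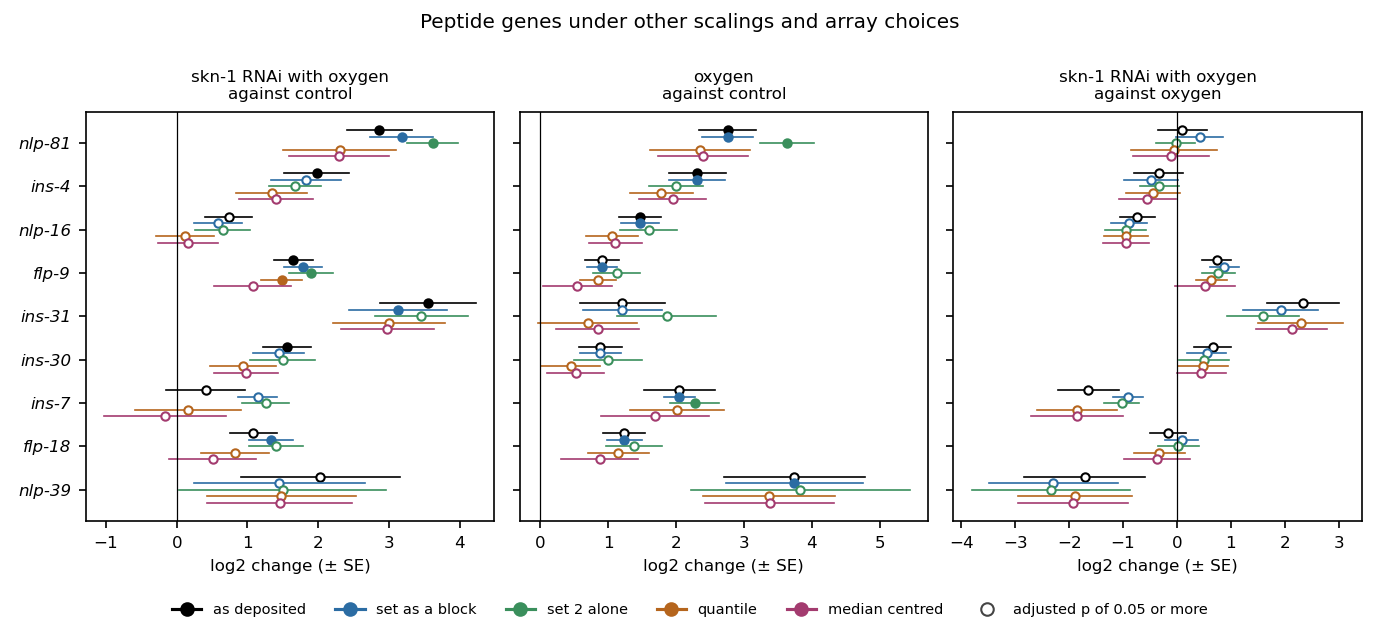
Log2 change with its standard error for 9 peptide genes as deposited, with the array set as a block, within set 2, after quantile normalization and after median centring. Filled points have a limma adjusted p under 0.05. Controls of nlp-81, ins-4, ins-31, ins-30 and nlp-39 were dim, so the sizes of their changes against control are read as bounds. In the right panel ins-7, nlp-39, nlp-16 and ins-4 lie below 0 in all 5 settings.

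Between skn-1 RNAi with oxygen and oxygen alone, 0 peptide probe sets were called by limma, against 0.227% of all probe sets (0.0455% higher and 0.182% lower). At an unadjusted p under 0.05 there were 12, of which 9 were higher and 3 lower, against 9.77% of all probe sets. The set-blocked fit, set 2 alone, median centring and quantile normalization gave 0 calls too, against 0.754%, 0.117%, 0.182% and 0.390% of all. Counted without a model, 9 probe sets were higher without overlap (9.89%, against 12% of all) and 4 were lower (4.4%, against 5.21%).

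The values for ins-7 ran the other way from those under oxygen alone. It had 110, 117 and 67.3 with skn-1 RNAi and oxygen, below all 4 oxygen samples at 548, 386, 161 and 234, and within the control range of 39 to 130. The log2 change against oxygen was -1.65 ± 0.56 (SE), with a limma adjusted p of 0.425, and it was -0.91 in the set-blocked fit (adjusted p = 0.203) and -1.02 within set 2 (adjusted p = 0.327). Of the oxygen samples and of the controls, those of set 1 were the higher, and no skn-1 RNAi sample belongs to set 1. Every skn-1 RNAi signal lay above the controls of set 2. Its place within the control range therefore rests on the controls of set 1, and a return to the control level is not shown. The nlp-20 probe set had 194, 219 and 213 with skn-1 RNAi and oxygen and 377, 290, 317 and 364 with oxygen, apart, with a log2 change of -0.68 ± 0.21 (SE) and a limma adjusted p of 0.362, or -0.69 in the set-blocked fit (adjusted p = 0.199).

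Other members had higher values with skn-1 RNAi than with oxygen alone, none called. The ins-22 probe set had 54.2, 52.4 and 53.3 with skn-1 RNAi and oxygen and 30.4, 17.5, 30.6 and 11.6 with oxygen, with a limma adjusted p of 0.324 (0.215 in the set-blocked fit). The ins-33 probe set had 66.6, 64.6 and 44.1 with skn-1 RNAi and oxygen and 11.9, 12.2, 36.2 and 14.6 with oxygen, all dim, at least 1.81-fold, with a limma adjusted p of 0.283 (0.226 in the set-blocked fit). Neither overlapped between the groups.

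For ins-31 the change was at least 2.69-fold, with a limma adjusted p of 0.323 (0.273 in the set-blocked fit). The nlp-18 probe set had 90.9, 99.3 and 101 with skn-1 RNAi and oxygen and 65.6, 56.7, 61.1 and 53 with oxygen, and a limma adjusted p of 0.487 (0.383 in the set-blocked fit). In flp-1, the neuropeptide gene tied to SKN-1, 1 probe set had 166, 184 and 168 with skn-1 RNAi and oxygen, 107, 97.7, 86.4 and 110 with oxygen, and 107, 69.2, 141 and 132 in controls. Its skn-1 RNAi signals lay above both other groups, with a log2 change of 0.79 ± 0.26 (SE) against oxygen and a limma adjusted p of 0.405, or 0.64 in the set-blocked fit (adjusted p = 0.307). The other probe sets of flp-1 had changes of 0.15 and 0.64 with the groups overlapping, or -0.03 and 0.13 in the set-blocked fit.

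The median log2 change between these groups was 0.27 for the peptide genes and 0.22 for all probe sets. Leaving out 1 array moved the first to between 0.14 and 0.36, with the lowest value without oxygen 1. By family it was 0.55 for flp, 0.11 for nlp and 0.49 for ins. In the set-blocked fit the median was 0.05 for the peptide genes and 0.02 for all, and 0.24 for flp, -0.11 for nlp and 0.15 for ins.

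Of the members with known roles in insulin signalling or stress, most overlapped between the groups. For daf-28, a DAF-2 agonist, the signals were 48.1, 41.2 and 51.4 with skn-1 RNAi and oxygen, 17.3, 28, 34.2 and 74.5 with oxygen, and 24.3, 27.1, 49.6 and 97.8 in controls. That of ins-6, another agonist, averaged 66.9 ± 12 with skn-1 RNAi and oxygen (SD, n = 3), 55.3 ± 14.4 with oxygen and 43.5 ± 29.3 in controls (SD, n = 4 each). Those of the antagonists ins-1 and ins-18 had log2 changes under oxygen of 0.58 and 0.51, with limma adjusted p of 0.693 and 0.765. Signals of flp-11, which acts in sleep, were 154, 197 and 157 with skn-1 RNAi and oxygen and 72.5 to 107 in controls, apart, with a log2 change of 0.93 and a limma adjusted p of 0.181, or 0.60 in the set-blocked fit (adjusted p = 0.275). That of flp-13, which acts in stress-induced sleep, overlapped in all 3 comparisons. These genes were chosen for their roles after their values were seen.

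Several genes had more than 1 probe set, and these did not always run together. Of the 10 such genes, 8 had more than 1 tested. Under oxygen the signs differed for flp-1, flp-2, flp-8, nlp-9 and nlp-99, and with skn-1 RNAi against oxygen for nlp-16 (-0.74 and 1.14 on the log2 scale). Some ins genes lie next to each other in the genome: ins-2, ins-3, ins-4, ins-5 and ins-6 follow one another, as do ins-24, ins-30 and ins-26. The call of ins-4 under oxygen stood beside log2 changes of 0.49 for ins-2, 0.14 for ins-5 and 0.58 for ins-6, with limma adjusted p of 0.701 to 0.986, and ins-3 was not tested.

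The genes that make, release, degrade and receive these peptides were read from lists. Of 11 tested processing enzymes, 0 were called under oxygen alone (median log2 change 0.57), and 2 rose with skn-1 RNAi and oxygen against control (median 1.06, all 11 above 0). Under oxygen alone 3.83% of all probe sets were called, with a median of 0.06, so 0 of 11 does not set the enzymes apart. With skn-1 RNAi and oxygen against control, 3.34% of all probe sets were called and 69.4% lay above 0. In that comparison the median of the enzymes was 0.74 in the set-blocked fit, 0.60 within set 2 and 0.49 after median centring. Signals of pgal-1, a peptide-amidating lyase, were 406, 697 and 656 with skn-1 RNAi and oxygen and 289, 208, 287 and 269 in controls, a log2 change of 1.13 ± 0.24 (SE) with a limma adjusted p of 0.0371. That of sbt-1, the chaperone of EGL-3, had 576, 727 and 670 with skn-1 RNAi and oxygen and 332, 287, 296 and 408 in controls, a log2 change of 1.00 ± 0.23 (SE) with a limma adjusted p of 0.0475. Both sets of groups were apart. In the set-blocked fit pgal-1 stayed called (adjusted p = 0.0452) and sbt-1 did not (adjusted p = 0.0523). Leaving out 1 array ended the call of pgal-1 in 6 of 11 fits (control 1 or 2, oxygen 1 or 3, skn-1 RNAi 2 or 3) and that of sbt-1 in 8 (all but control 4 and oxygen 2 or 4). For cpd-1, a carboxypeptidase, the log2 change under oxygen was 1.48 with a limma adjusted p of 0.195, and for egl-21 it was 1.15 with skn-1 RNAi and oxygen against control, with an adjusted p of 0.112 (0.133 in the set-blocked fit).

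Of 18 tested genes of dense core vesicles, 0 were called in any of the 3 comparisons, with median log2 changes of 0.28 under oxygen and 0.71 with skn-1 RNAi and oxygen against control. The second was 0.32 in the set-blocked fit and 0.42 within set 2. Of all probe sets, 3.83% were called under oxygen and 3.34% with skn-1 RNAi and oxygen against control. Between skn-1 RNAi with oxygen and oxygen alone it was 0.227%. Against these shares 0 of 18 does not set the list apart. The set-blocked fit called 4 of the 18 higher under oxygen and 1 with skn-1 RNAi and oxygen against control. Of all probe sets it called 9.26% and 4.54% in either direction. For ida-1, a dense core vesicle membrane protein, the signals averaged 337 ± 70.8 with skn-1 RNAi and oxygen (SD, n = 3), 125 ± 64.5 with oxygen and 78.3 ± 47.5 in controls (SD, n = 4 each). Its skn-1 RNAi signals were above both other groups, with a limma adjusted p of 0.0503 against control, or 0.00743 in the set-blocked fit. That of unc-64, the syntaxin of synaptic and dense core vesicle release, had 270, 243, 299 and 218 under oxygen and 152, 131, 71.3 and 44.2 in controls, with a limma adjusted p of 0.0502 (0.0132 in the set-blocked fit). For ric-19, a regulator of dense core vesicle maturation, the oxygen signals of 53.7, 55.5, 152 and 85.2 lay above the control signals of 32.7, 27.5, 50.6 and 33.8, with a limma adjusted p of 0.117.

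Of 44 tested neuropeptide receptors, 2 rose under oxygen, which is 4.55% of them and near the 3.83% of all probe sets, with a median log2 change of 0.24. After median centring and quantile normalization 0 were called, with medians of -0.12 and -0.21. Signals of trhr-1, a thyrotropin-releasing hormone receptor, were 79.9, 93.0, 362 and 158 under oxygen and 27.7, 33.3, 34.9 and 19.9 in controls, 5.07-fold, with a log2 change of 2.34 ± 0.45 (SE) and a limma adjusted p of 0.0173. That of npr-28 had 64.9, 35.4, 68.0 and 126 under oxygen and 19.1, 12.3, 8.0 and 28.8 in controls, 4.37-fold, with a limma adjusted p of 0.0397. Both had every oxygen signal above the controls. The call of trhr-1 ended without control 1 or oxygen 4, and that of npr-28 in 8 of the 11 fits that left out 1 array (all but control 4, oxygen 2 and skn-1 RNAi 3). Signals of tkr-2, a tachykinin receptor, were 2.0, 2.1 and 1.8 with skn-1 RNAi and oxygen, all dim, and 18.3, 42.1, 3.0 and 12.2 with oxygen, with a limma adjusted p of 0.435. A further 45 receptor genes were too dim to be tested, daf-2 and npr-1 among them. Against control, 0 receptors were called with skn-1 RNAi and oxygen, and their median log2 change was 0.68, or -0.14 in the set-blocked fit. Of all probe sets 3.34% were called there, with medians of 0.36 and 0.09.

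Of 14 tested neprilysins, which degrade peptides outside cells, 0 were called under oxygen and 1 rose with skn-1 RNAi and oxygen against control. That is 7.14% of them, against 3.34% of all probe sets called. Their median log2 change in that comparison was 1.26, or 0.52 in the set-blocked fit. For nep-24 the signals were 57.9, 58.1 and 49.5 with skn-1 RNAi and oxygen and 2.7, 1.6, 7.8 and 6.8 in controls, all dim, at least 2.18-fold, with a limma adjusted p of 0.0371 (0.0264 in the set-blocked fit and 0.0779 within set 2). This call ended in 6 of the 11 fits, those without control 1 or 2, oxygen 4 or any 1 of the skn-1 RNAi samples. Signals of nep-22 were 386, 522 and 337 with skn-1 RNAi and oxygen and 111, 147, 218 and 156 with oxygen, apart, with a limma adjusted p of 0.322 (0.2 in the set-blocked fit). Of 9 other secreted signals, 0 were called in any comparison, against 0.227% to 3.83% of all probe sets. For dbl-1, a BMP-like ligand, they were 18, 27.8, 41 and 83.2 under oxygen and 1.7, 15.5, 8.1 and 9.5 in controls, all dim, at least 1.43-fold, with a limma adjusted p of 0.0812. Of the 7 tested antimicrobial nlp genes, 0 were called. Under oxygen their median log2 change was 1.05, and with skn-1 RNAi it was -0.43 against oxygen alone. The nlp-31 probe set had 587, 805, 1567 and 937 under oxygen and 164, 284, 743 and 128 in controls, a log2 change of 1.82 ± 0.55 (SE) with a limma adjusted p of 0.116.

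**Figure D5:**
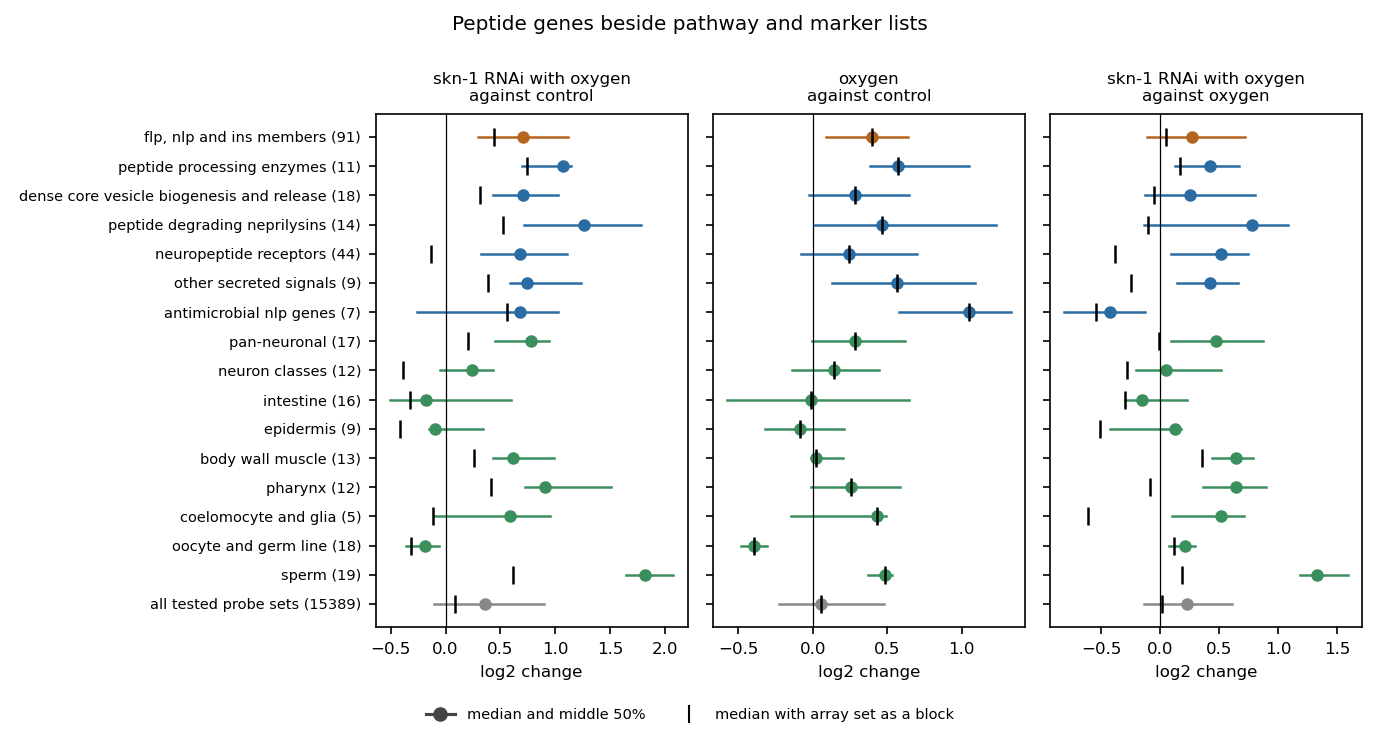
Median (point) and interquartile range (bar) of the log2 changes of the peptide genes, the pathway lists, the marker lists and all probe sets, with the number tested in brackets. The black ticks are medians with the array set as a block, which leaves oxygen against control as it was and moves most medians of the comparisons with skn-1 RNAi with oxygen on top to the left.

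Tissue markers give the setting of these values. Of 17 tested pan-neuronal genes, 0 were called in any of the 3 comparisons, against 0.227% to 3.83% of all probe sets. The set-blocked fit called 4 higher under oxygen, and 9.26% of all probe sets in either direction. Their median log2 change was 0.29 under oxygen and 0.78 with skn-1 RNAi and oxygen against control, or 0.21 in the set-blocked fit. Their summed signal was 5044 to 5578 with skn-1 RNAi and oxygen, 3564 to 5900 with oxygen and 2578 to 4340 in controls. The list shares egl-3 and egl-21 with the processing enzymes. With the dense core vesicle list it shares ida-1, rab-3, snb-1, unc-64, ric-4, unc-13, unc-104, unc-18, snt-1 and the untested unc-31. The pan-neuronal and dense core vesicle values are therefore not independent of each other. Markers of neuron classes summed to 2510 to 2596 with skn-1 RNAi and oxygen, 2122 to 2574 with oxygen and 2121 to 2853 in controls. The median log2 change of the 12 tested was 0.24 with skn-1 RNAi and oxygen against control, against 0.36 over all probe sets. It was -0.39 in the set-blocked fit and -0.47 within set 2, against 0.09 and 0.06 over all. Of 19 tested sperm genes, all 19 had a log2 change above 0 with skn-1 RNAi and oxygen against control, with a median of 1.81, or 0.61 in the set-blocked fit, and 0 were called. Their sum was 26379 to 34923 with skn-1 RNAi and oxygen, 4928 to 37336 with oxygen and 3642 to 31253 in controls. Of pharynx markers, all 12 tested lay above 0 with skn-1 RNAi and oxygen against control, with a median of 0.90, or 0.41 in the set-blocked fit and 0.24 within set 2, and 0 were called. Of all probe sets, 69.4% lay above 0 there. The median of 13 muscle markers was 0.61 there, or 0.26 in the set-blocked fit and 0.37 within set 2. Of these markers, 1 was called higher (7.69%, against 3.34% of all probe sets called). The median of 18 oocyte and germ line markers was -0.39 under oxygen. Of them, 1 was called lower (5.56%, against 3.83% of all probe sets called and 0.539% called lower). Intestinal markers held 3 genes called higher and 3 called lower under oxygen, of 16 tested. This is 37.5%, against 3.83% of all probe sets, 3.29% higher and 0.539% lower. The set-blocked fit called 4 higher and 4 lower, against 9.26% of all. Set 2 alone called 0 higher and 1 lower, against 2.74%. The part of tissue composition in the peptide values was not tested.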

How the data were processed

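Total RNA (10 µg per sample, per the labels' protocols) was hybridised to 1 array per sample. The deposited values are intensities, 1 linear MAS5 signal per probe set from GCOS 1.4, per the submitters' processing notes. The scaling target and background settings are not given in the sources used here. The labels do not state separate cultures, so the p-values reflect only how these samples varied, which may be technical, and the number of arrays limits precision.

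The 77 manufacturer's control probe sets were left out, and genes were named from the platform annotation where a probe set had 1 gene. Gene order was read from the reference gene table of assembly WBcel235, which held 20701 of the identifiers. The 1 signal of 0 was set to 0.1. Probe sets at or above the 40th percentile of their own array on at least 3 arrays were tested, 15389 in all. Log2 signals of all 11 arrays were modelled by group alone in R 4.3.3 (limma 3.58.1, lmFit then eBayes). Tests were two-sided, adjusted by Benjamini-Hochberg over all tested probe sets, with a threshold of 0.05. The fit was tested on simulated data with independent noise and no array sets, so that test does not bear on the sets. Where all arrays of a group were dim, only a bound on the fold is given, the mean log2 signal of the brighter group over that of the percentile or, where higher, the dim signal itself. Signals of different probe sets are not compared as levels.

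Set 1 and set 2 were told apart by poly-A spike-in signal, with medians of 110 to 211 on set 1 and 2.95 to 14 on set 2, and by trimmed mean signal (2% off each end). No label states them. Deviations of same-numbered control and oxygen arrays from their group means correlated at 0.449 to 0.565. No label states a pairing, and same-numbered arrays also share a set. Differently numbered arrays of a set correlated at 0.346 to 0.533, so number and set are largely not told apart. The skn-1 RNAi numbers did not pair.

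Members and lists were chosen with earlier results of these data known. Genes named are the called ones, per family the 4 brightest and, per comparison, the 3 with the smallest p. In the other lists the rule takes the called ones and the 2 with the smallest p, of which some are given only within their list. Some members of known role were added and are marked as such. Alternatives were other scalings, filters, a floor of 16, moderation with a trend, the array set and the replicate number as blocks, single sets and each array left out.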

Additional observations from a re-analysis of the deposited data

How the results depend on the processing

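Under oxygen against control, 3 peptide probe sets were called in the fit reported. The count was 0 after quantile normalization, 0 after median centring, 0 in set 1 alone, 8 with the array set as a block and 6 with signals below 16 raised to it. A filter at the 60th percentile gave 3 too, but these were flp-9, flp-18 and ins-7. None of the 3 in the fit reported was called with it. Of all probe sets, the floor of 16 called 671, against 590 in the fit reported. The stricter filter called 665 of the 10104 probe sets it tested. Leaving out 1 array gave 2 to 4. With skn-1 RNAi and oxygen against control the count was 5. It was 2 after quantile normalization, 0 after median centring, 3 with no filter, 2 with a filter at the 60th percentile, 2 in set 2 alone and 8 with the floor of 16. Leaving out 1 array gave 0 to 6, with 0 without skn-1 RNAi sample 3, 1 without sample 2, 2 without sample 1 or without control 1, and 3 without control 2 or oxygen 1. Of all probe sets, the floor of 16 called 685 in that comparison, against 514 in the fit reported. The filter at the 60th percentile called 725 of the 10104 it tested. Between skn-1 RNAi with oxygen and oxygen alone, every setting gave 0.

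Because replicate 4 of the controls differed most from its group, 2 settings chosen after seeing the data left it out. In set 2 alone this gave 1 call under oxygen and 1 with skn-1 RNAi and oxygen against control, both nlp-81. With the array set as a block it gave 6 and 5. With the replicate number as a block in the full fit, oxygen against control kept 3 calls, with ins-7 in the place of nlp-16. In a fit of control and oxygen arrays only, also added later, there were 4 calls with the replicate block and 4 without it, with ins-7 in the place of ins-4 under the block. With skn-1 RNAi and oxygen against control the replicate block gave 14, although those numbers share only a name. Over all probe sets, oxygen against control had 590 calls in the fit reported, 1425 with the array set as a block, 294 after median centring, 30 in set 1 alone, 289 in set 2 without control 4, 1289 with the array set as a block without control 4, 346 with control and oxygen arrays only, and 330 to 584 with 1 array left out. Against control, skn-1 RNAi with oxygen had 514, with 215 after median centring, 262 with no filter, 286 in set 2, 116 there without control 4, 1669 with the replicate block, and, with 1 array left out, 170 without skn-1 RNAi sample 3, fewer without sample 2 and up to 627. Against oxygen it had 35, with 60 after quantile normalization, 20 with no filter, 65 at the 60th percentile, 116 with the array set as a block, 199 there without control 4, 18 in set 2, 60 with a trend and robust moderation, 88 with the floor of 16, and 16 to 57 with 1 array left out. The cause of these changes was not tested. Dim signals in controls limit the folds of nlp-81, ins-4, ins-30, ins-31 and nlp-39 to bounds.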
